A study of Mus musculus with 24 samples.

Results

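Relative to the level used for their gene, the 335 exon-level probe sets described here differed between the cardiac and the non-cardiac groups. The cardiac groups are cardiac bodies and hearts, and the others are ES cells and embryonic bodies. For 93 of the 335 the level used came from a row other than the one beside the probe set, as described below. Each probe set reads a short stretch of a transcript, usually 1 exon or a piece of it. Its splicing index is the log2 signal of the probe set minus the log2 level of its gene on the array of the same group and replicate. Probe sets differ in how strongly they respond, so only the change of an index from array to array can be read, not its level against that of another probe set. The members were chosen by these index values: all 8 cardiac arrays had to lie above, or all below, the 4 other arrays, and the 2 means had to differ by 1 or more. Only genes at 7 or more (log2) on all 12 arrays were considered, which left 47906 of the 241576 exon-level probe sets, in 3594 genes. The rule kept 335 of them in 202 genes, or 0.699%, with 181 higher and 154 lower in the cardiac groups. Because the rule used the cardiac against non-cardiac contrast on all 12 arrays, the differences along it are a description with no test.

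The series follows mouse heart development and the formation of cardiomyocytes in culture, and asks which genes and exons change. RNA was measured on Affymetrix mouse gene arrays in 6 groups with 2 arrays apiece. Of the cultures, ES cells were taken undifferentiated (day 0), embryonic bodies (EB, aggregates of differentiating ES cells) on day 7 and cardiac bodies (CB) on day 14, all in DMEM-based medium with serum. Of the animals, whole hearts were taken late in embryonic life (E17.5), on day 1 after birth (P1) and in adulthood, so the heart samples hold several cell types beside cardiomyocytes. The labels name no cell line, mouse strain, treatment or genetic change, and do not say whether the arrays of a group came from separate cultures or animals. The p-values given here therefore measure the spread between these samples, which may be technical. In such bulk RNA, fewer cells of a type and less RNA per cell cannot be told apart.

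Alternative splicing lets 1 gene make several RNAs by including, skipping or exchanging exons, and other starts or ends of transcription change the first or last exons in the same way. Heart and skeletal muscle are known for many such exons, often in genes of the contractile filaments, the Z-disc and energy metabolism. Proteins of the Rbfox, Mbnl, Celf, Ptbp and Rbm families bind near these exons and promote or block their use. An array probe set cannot show which of these events took place, only that a stretch is brighter or dimmer than its gene.

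The mean level of 12 cardiomyocyte markers was 5.35 to 6.14 on the ES and EB arrays, 10.9 to 11.3 in CB and 11.5 to 12.8 in the hearts. The CB arrays also carried markers of undifferentiated cells: the mean of 10 pluripotency markers was 9.91 to 10.2 in CB, 10.9 in ES cells, 7.69 to 7.85 in EB and 5.04 to 5.35 in the hearts. Fibroblast markers (7 genes) averaged 5.73 to 5.79 in CB and 8.57 to 10.5 in the hearts, and endothelial markers (7 genes) 5.55 to 5.68 and 9.13 to 9.45. The EB arrays differed from each other in red cell markers (4 genes measured), with means of 5.75 and 9.52. The adult arrays differed in genes of the atrium: Myl7, the atrial myosin light chain, was 5.42 on the first, where the ES and EB arrays had 5.55 to 6.56, and 11.27 on the second, and the natriuretic peptide gene Nppa was 10.10 and 12.79. The part that these mixtures play in the index values was not tested. Between both arrays of a group the index correlated at r = 0.909 to 0.940 across the probe sets considered, which are not independent replicates. At gene level the P1 arrays agreed least, with r = 0.971 beside 0.983 to 0.993 in the other groups. The splicing factor gene Hnrnph1, for example, was 11.05 and 9.48 at P1. Without P1 replicate 2 the floor of 7 admitted 52352 probe sets in place of 47906.

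For 93 members the gene level came from a row other than the one beside the probe set. Probe sets are numbered after their gene row: in 99.5% of 205379 cases that could be checked, the row numbered next below a probe set had the same symbol. Of the 335 members, 242 (72.2%) in 179 genes were measured against that own row, compared with 94.8% of all probe sets considered. The other 93, in 24 genes, were measured against a row elsewhere that bears the probe set's symbol. For 66 of them, in 14 genes, the row numbered below named the same gene. For 22, in 6 genes, it named another gene, so the index may set 1 gene's stretch against a different gene, and for 5, in 4 genes, no gene was listed for it. Measured against the row numbered below them, 3 of the 93 met the rule. The members in Ahctf1, Cox20, Eif4e, Ndufb5, Ppif and Rbbp6 and the other-row member of Nnt had a difference of 0.0 there. Their numbered rows may repeat the values of the probe set itself, in which case these members could not have met the rule. The account that follows rests on the 242 own-row members, 111 higher and 131 lower, and the 93 are given apart. Members of 1 gene share its gene level and are not independent of each other.

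Among the own-row members the median index difference, cardiac minus non-cardiac, was 1.48 for the higher and -1.40 for the lower ones. The gap between the nearest arrays of the 2 sides was 0.19 log2 units at the median, and 14 members had a gap of 1 or more. The 3 members nearest the threshold were in Stoml2 (1.0006), Trim3 (1.0016) and Klhdc10 (-1.0057). The nearest probe sets left out were in Snrnp200 (0.9979), Mgrn1 (0.9935) and Lrrfip2 (-0.9847). Another 515 probe sets had separated sides but a difference under 1. With both levels quantile-normalized the rule kept 405 probe sets, 137 higher and 268 lower, against 181 and 154 as deposited. That scaling moved the median index difference of all probe sets considered from -0.01 to -0.15. Without EB replicate 2 the rule kept 529 probe sets and without CB replicate 2 it kept 592; fewer arrays then had to be separated.

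The index can move because the probe set changes, because the gene changes around it, or both. Of the 111 higher own-row members, 73 had a signal that itself rose by 1 or more, and 34 sat in genes whose level moved by less than 0.5. In 49 the gene moved by 1 or more, rising in 25 and falling in 24. In a falling gene a higher index can mean that the stretch did not follow the gene down. The Jpt2 member, for example, had a mean signal of 6.94 on both sides while its gene fell from 10.30 to 8.41. The Cdc16 member had dim means of 2.00 and 2.31 while its gene fell from 9.27 to 8.15. Of the 131 lower members, 58 had a signal that fell by 1 or more, 34 sat in genes that moved by less than 0.5, and in 62 the gene rose by 1 or more while the stretch did not keep up. On the dimmer side, 55 higher and 50 lower members lay below the median signal of the exon-level arrays. Signals were not tested against background.

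**Figure D1:**
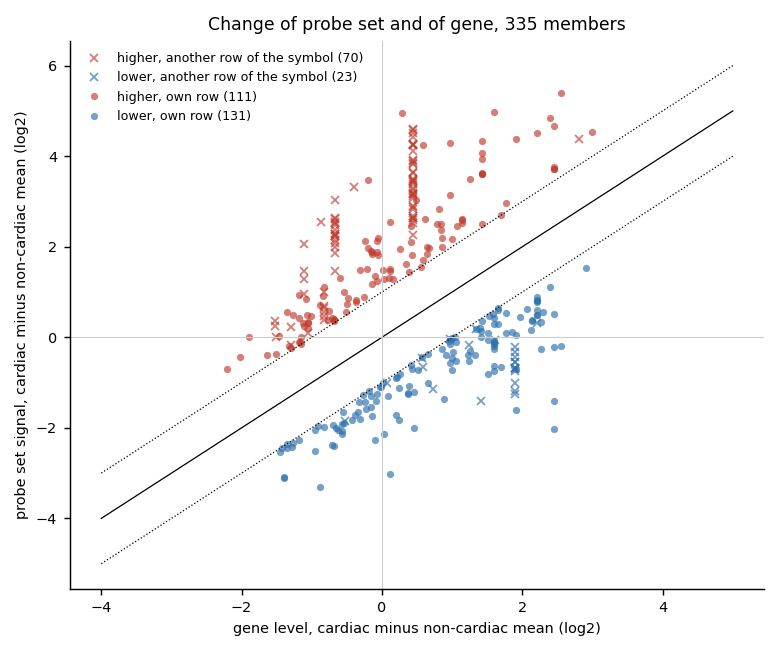
Each point is 1 of the 335 members, with the change of its gene on the x axis and of its own signal on the y axis (both cardiac minus non-cardiac mean, log2); the solid line marks equal change and the dotted lines a difference of 1, the threshold of the rule. Circles are the 242 members measured against their own gene row, and crosses the 93 measured against another row, which line up in columns because many share 1 gene.

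The widest separation was in Capzb, which encodes the capping protein's beta subunit, at the ends of actin filaments, and has a form of its own at the muscle Z-disc. The signal of probe set 10509631 was 4.72 and 5.55 in ES cells, 5.25 and 6.03 in EB, 10.26 and 9.14 in CB, 10.59 and 10.23 at E17.5, 10.40 and 10.47 at P1, and 10.79 and 10.89 in adults. Every cardiac array was thus at least 3 log2 units above every ES and EB array, while the gene level stayed between 9.72 and 10.87. The index rose from -4.48 ± 0.47 (SD, n = 4) to 0.19 ± 0.43 (SD, n = 8), a difference of 4.67. Most of the change was already seen in CB, where the index was 0.19 and -0.70.

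Other single stretches rose in genes whose mean levels on the 2 sides were within 0.58 of each other. Anxa7 is a calcium-dependent membrane-binding annexin with a longer muscle form. Its probe set 10417880 had signals of 2.73 and 2.96 in ES cells, 3.45 and 2.62 in EB, 4.30 and 4.87 in CB, 7.05 and 5.30 at E17.5, 7.28 and 7.40 at P1, and 7.47 and 7.58 in adults. The rise was spread over CB, E17.5 and P1, with the E17.5 arrays apart from each other, and the gene level stayed between 7.12 and 7.75. Itga6, a laminin-binding integrin subunit with alternative cytoplasmic tails, had signals of 6.58 and 6.05 in ES cells, 3.65 and 3.76 in EB and 8.68 to 9.76 on the 8 cardiac arrays (probe set 10472844). EB were here the lowest group, and the index difference was 3.68. Dst, a large linker of the cytoskeleton with a muscle form, rose stepwise at probe set 10345343, from 6.64 to 7.38 on the ES and EB arrays to 8.83 and 8.22 in CB and 9.76 to 11.4 in the hearts.

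The choline transporter gene Slc44a1, the liprin gene Ppfibp1, the proteoglycan gene Agrn, the DNA methyltransferase gene Dnmt3a and the kinase gene Map3k4 followed the same form. The means of their genes differed by -0.24 to 0.11 between the sides, although single groups moved more: the Ppfibp1 gene was 8.01 and 7.87 in ES cells and 9.42 and 9.15 in EB, and the Dnmt3a gene was 9.44 and 9.35 in CB and 7.56 and 7.16 in adults. Between the sides, their indices rose by 2.43, 2.36, 2.24, 2.19 and 2.18. They differed in which cardiac group stood highest. For Dnmt3a, which makes a shorter form from an internal start in ES cells, the index peaked at E17.5 with -0.10 and -0.59 and was -1.23 and -1.67 in adults. For Map3k4 the index was -0.92 to 0.25 in CB, E17.5 and P1 and 2.72 and 2.99 in adults, so most of its difference came from the adult arrays. The Ppfibp1 index in CB (-2.53 and -2.69) lay next to that in ES cells (-2.73 and -3.10), and the sides were 0.04 apart.

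Single stretches also fell in genes whose side means were close. Paip1 encodes a partner of the poly(A)-binding protein in translation. Its probe set 10407369 had signals of 6.97 and 7.47 in ES cells, 9.04 and 8.89 in EB, 6.79 and 6.65 in CB, 5.48 and 3.86 at E17.5, 4.18 and 2.58 at P1, and 5.78 and 5.19 in adults. The second P1 array was lowest. The gene was not steady: it stood at 8.58 and 8.46 in ES cells, 10.10 and 10.19 in EB, and 9.27 to 9.83 on the cardiac arrays, so that its side means of 9.33 and 9.44 average unlike groups. The signal of the stretch was also higher in EB than in ES cells. Its index was -1.06 and -1.29 in EB and -6.81 to -2.53 on the cardiac arrays, a difference of -3.14 between the sides. Immt, a scaffold of the inner mitochondrial membrane, lost signal in steps at probe set 10539033: 9.84 and 9.91 in ES cells, 9.27 and 9.55 in EB, 9.18 and 9.35 in CB, 8.42 and 6.94 at E17.5, 8.0 and 7.34 at P1, and 5.54 and 6.29 in adults. A further Immt probe set fell by 1.66 on the index. Emd, the nuclear membrane protein emerin, fell by 2.18 at probe set 10600348, and its adult arrays were far apart at signals of 1.28 and 4.13.

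**Figure D2:**
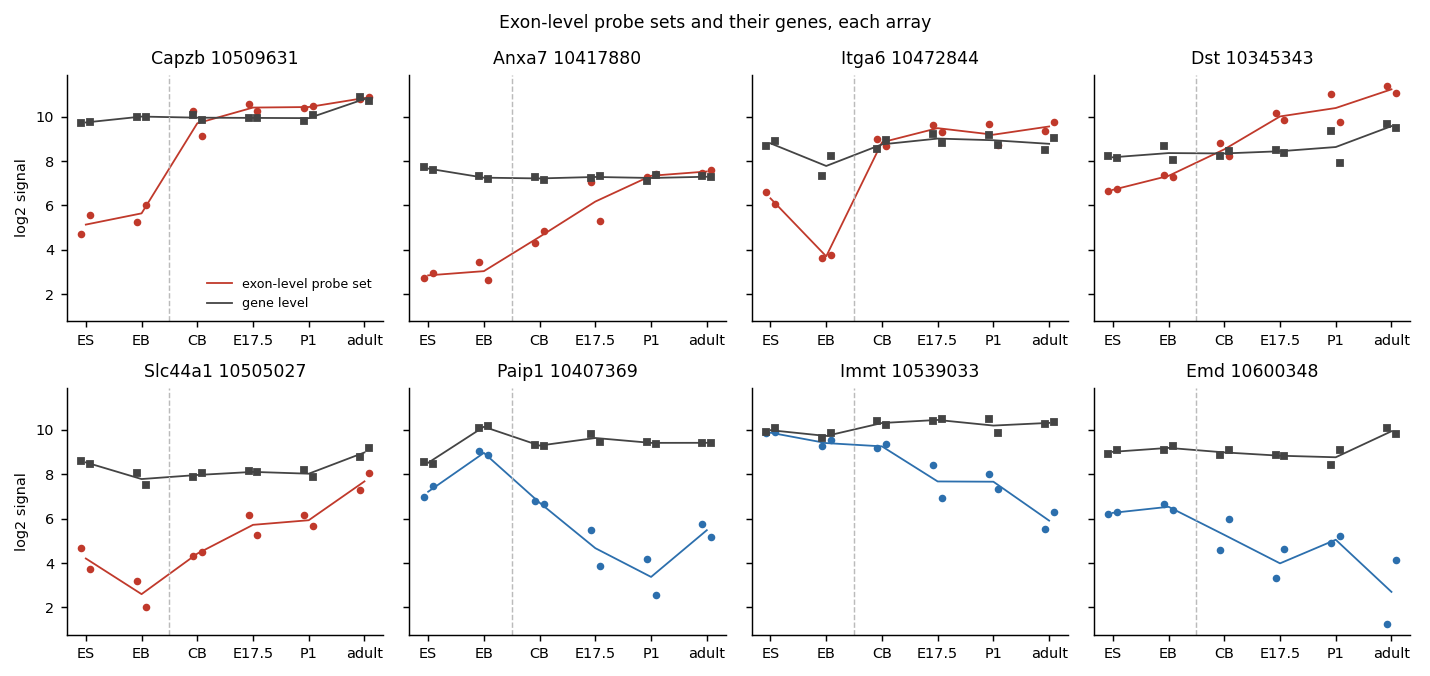
Log2 signal of 8 probe sets (coloured; red higher, blue lower in cardiac groups) and the level of their genes (grey squares), by group; points are single arrays, lines join group means, and the dashed line parts the non-cardiac from the cardiac groups. The stretches move more than their genes between the sides, Capzb already in CB and Immt mostly in the hearts, while the Paip1 and Itga6 genes also move between ES cells and EB.

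In 16 genes, with 63 own-row members, some stretches had a higher and others a lower index in the cardiac groups. A lower index need not be a loss of signal: in Pdlim5 and Atp2a2 all members rose in signal. Several of these genes are known to exchange exons or ends in muscle. Tpm1 encodes tropomyosin, the rod that lies along actin and has exchangeable exons, several starts and several ends. It held 8 members among its 17 probe sets, 4 higher and 4 lower, while the gene rose from 9.86 to 12.31. The largest fall was at probe set 10594669, with signals of 6.23 and 7.33 in ES cells, 10.39 and 10.19 in EB, 6.94 and 6.65 in CB, 5.95 and 6.73 at E17.5, 7.90 and 6.21 at P1, and 4.76 and 6.91 in adults. This stretch rose with the gene up to EB and was below both EB arrays on every cardiac array, an index difference of -4.48. Probe set 10594662 followed a like course, with -3.85. With the median of the gene's other probe sets as the reference the sizes of 6 of the 8 members moved beyond their spread and kept their sign: 10594662 had -4.66, 10594664 had -2.63 in place of -1.93 and 10594663 had 1.57 in place of 2.21, while 10594665, 10594668 and 10594676, at 1.27 to 1.31, had 0.80 to 0.83. The higher member 10594663 had signals of 4.72 and 6.58 in ES cells, 8.48 and 9.43 in EB and 10.98 to 12.43 on the cardiac arrays. Its index went from -3.41 to -1.73 on the first 4 arrays to -0.75 to 0.03 on the cardiac ones.

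Slc25a3, the mitochondrial phosphate carrier, has a pair of exons of which muscle uses one and most other tissues the other. Its neighbouring members 10371885 and 10371884 moved in opposite directions. The first had signals of 9.44 and 9.36 in ES cells, 9.66 and 9.33 in EB, 11.98 and 11.94 in CB, 13.00 and 12.77 at E17.5, 13.16 and 13.21 at P1, and 13.77 and 13.74 in adults. The second stayed between 11.69 and 12.23 up to P1 and was 10.96 and 11.06 in adults, although the gene had risen from 10.55 to 11.80. The first had risen in CB on both arrays, whereas the second left its earlier range only in adults. The index differences were 2.25 and -1.56, and that of 10371885 was 2.57 with the median of the gene's other probe sets as the reference and 2.03 after quantile normalization.

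Atp2a2 encodes the calcium pump of the sarcoplasmic reticulum, whose muscle and general forms differ at the end of the transcript. Probe set 10533484 rose from 6.62 to 7.91 on the ES and EB arrays to 11.39 to 12.92 on the cardiac arrays, by 2.46 more than its gene. Its neighbour 10533485 rose less than the gene, from 10.37 to 10.77 on the ES and EB arrays to 11.25 to 12.55, with an index difference of -1.27. Neither stretch had overlapping sides in signal. The gene as a whole rose by 2.39.

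Adenylate kinase Ak1, which exchanges phosphate between adenine nucleotides, and Hacd1, a dehydratase of very long fatty acid synthesis that is abundant in muscle, showed one rising stretch beside others that stayed or fell. In Ak1 the higher member 10471476 went from 5.70 to 6.88 on the ES and EB arrays to 9.19 to 11.23 on the cardiac ones, an index difference of 2.47, or 2.87 with the median of the gene's other probe sets as the reference. Its lower member 10471478 had signals of 7.22 and 7.11 in CB, close to the 6.34 to 7.96 of ES cells and EB, but 5.22 to 6.23 at E17.5 and P1 and 2.75 and 4.73 in adults. In Hacd1 the higher member 10480251 was 5.21 to 5.82 on ES and EB arrays and 9.33 to 11.68 on cardiac arrays, while the lower member 10480253 stayed between 5.96 and 7.46 on all 12. That second stretch has a lower index (-2.73) because its gene rose by 2.54 and it did not.

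Pdlim5, a Z-disc protein with long forms that carry LIM domains and short ones that do not, held 7 members among 12 probe sets. The gene rose from 8.66 to 10.87. Member 10502478 rose from 5.72 to 6.74 on the ES and EB arrays to 8.82 and 9.72 in CB and 10.69 to 11.78 in the hearts. The other 6 members lagged behind the gene, with index differences of -1.71 to -1.32, and had their lowest index in adults. Against the median of the gene's other probe sets 10502478 had 3.26 in place of 2.29 and 10502473 had -0.65 in place of -1.45. For 10502471 the index was 0.07 to 0.27 on the ES and EB arrays, -2.07 to -0.49 on the CB, E17.5 and P1 arrays, and -2.55 and -2.89 in adults.

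Clasp1, which stabilises growing microtubule ends, held 10 members, 9 lower and 1 higher. The 9 lower members carry consecutive numbers from 10349250 to 10349258. Their signals changed by less than 1 log2 unit between the sides while the gene rose from 8.46 to 10.06, giving index differences of -2.33 to -1.17. The higher member 10349278 rose from 1.74 to 4.76 on the ES and EB arrays to 6.13 and 7.00 in CB, 7.80 to 9.07 at E17.5 and P1, and 10.29 and 10.20 in adults. Its lowest values lie at the bottom of the scale, and the ES arrays alone differ by more than 2 log2 units. The probe set numbers give no position along the gene that the files state.

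Lrrfip2, a partner of the actin-remodelling protein flightless, held 7 higher members and 1 lower. The largest, 10589737, went from signals of 2.25 to 4.92 on ES and EB arrays to 6.93 to 9.23 on the cardiac ones, by 2.91 more than the gene. With the median of the gene's other probe sets as the reference, 10589732 of this gene had 0.25 in place of 1.07 and the lower member 10589749 had -1.90 in place of -1.07, so the sizes depend on the reference, while all 8 kept their sign. Myo18a, an unconventional myosin, had 3.33 at 10378919 and 2.17 at 10378962, with 10378916 and 10378922 at -1.53 and -1.12. The signal of 10378919 was 3.23 to 4.76 on the ES and EB arrays, 6.53 and 6.99 in CB, and 7.65 to 9.38 in the hearts.

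Rbfox2, itself a splicing regulator, held a member in each direction while its gene changed by 0.25. The signal of 10430151 was 5.74 and 6.28 in ES cells, 6.33 and 6.73 in EB, 8.0 and 8.30 in CB, 9.60 and 7.82 at E17.5, 9.64 and 9.58 at P1, and 6.51 and 6.36 in adults. It peaked around birth, and the adult signals lay within the EB range while the gene was at its lowest there. The lower member 10430162 had signals of 6.56 to 7.11 on ES and EB arrays and 5.56 to 6.75 on the cardiac ones, and these overlap. The calcium pump gene of the Golgi, Atp2c1, had 2.03 and -1.60 at a gene change of -0.14. Its lower member 10596373 had signals of 7.90 to 8.80 on the ES and EB arrays, 5.70 to 8.09 from CB to P1, and 2.96 and 4.61 in adults. Ccser2 had 3 lower members and 1 higher, with index differences of -1.72 to 1.16.

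**Figure D3:**
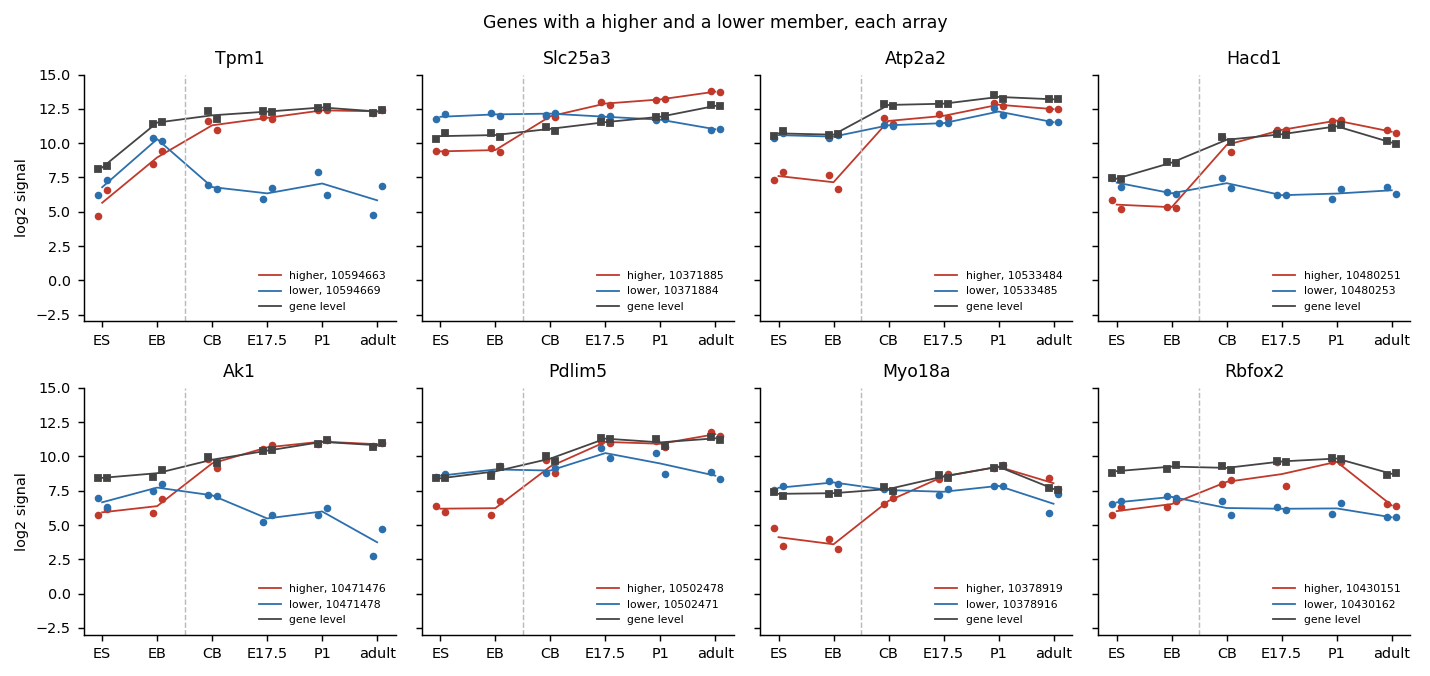
Log2 signal of the largest higher (red) and largest lower (blue) member of 8 genes, with the gene level (grey squares), by group; points are single arrays and lines join group means. Tpm1 10594669 falls back after EB, and the lower stretches of Hacd1, Atp2a2 and Pdlim5 rise less than their genes or not at all.

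Ogdh and Ndufa3 held lower members while their genes rose. Ogdh, a subunit of the citrate cycle's oxoglutarate dehydrogenase, rose from 9.11 to 11.37 as a gene. Its member 10374125 stayed between 7.36 and 7.96 up to P1 and was 6.25 and 5.24 in adults, an index difference of -2.52. Ndufa3, a subunit of respiratory complex I, rose from 8.88 to 10.58, and its member 10549547 stayed between 8.02 and 9.73 on all 12 arrays (-2.35). In these cases the index describes a stretch that did not share the gene's rise. Rdx, which links actin to the cell membrane, was different: its stretch 10585304 fell from 8.04 to 4.73 while the gene fell from 10.44 to 9.55, and its sides were 0.09 apart.

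The members were set beside gene lists that were chosen with earlier results of these data known. Of 57 genes known for alternative splicing in muscle that were bright enough to be considered, 15 (26.3%) held an own-row member. Of 43 genes of the actin cytoskeleton, Z-disc and adhesion the count was 15 (34.9%), with 10 genes in both counts. The shares were 2 of 37 for membrane traffic (5.41%), 5 of 35 for transcription and chromatin (14.3%), 5 of 45 for kinases and phosphatases (11.1%) and 2 of 37 for splicing regulators (5.41%). Over all 3594 genes it was 4.98%. Member genes had a median of 18 probe sets and all genes considered 11, so member genes offered more probe sets to the rule, and no test was made of these shares.

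How far the switch had gone in CB could be described, though not tested, since CB were part of the rule. For 184 of the 242 own-row members CB were the cardiac group with the smallest shift from the ES and EB mean. The median shift was 0.84 for CB, 1.33 for E17.5, 1.62 for P1 and 2.11 for adult hearts, and that of CB was 50.6% of the mean heart shift at the median. The adult arrays had the largest shift for 154 members. All 4 cardiac groups were past 1 for 72 members, 3 groups for 93, 2 for 48 and 1 for 29. Leaving the adults out of the mean, 183 of the 242 still differed by 1 or more. The pluripotency markers stood at 9.91 to 10.2 in CB against 5.04 to 5.35 in the hearts, and their part in the smaller CB shift was not tested.

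Steps within a side of the rule were tested with limma over all 47906 probe sets. From ES cells to EB, 3 of the 335 members passed (0.896%), beside 0.0397% of all probe sets, and all 3 moved the way of the later switch. Both groups entered the rule, so this direction, the share of members that passed and their p-values are not independent of it. At an unadjusted p under 0.05 there were 48, and the share of all probe sets at that level was not counted. Tpm1 10594673 had an index of 1.13 and 0.62 in ES cells, -2.21 and -2.43 in EB, and -3.70 to -2.68 on the cardiac arrays. Its signal stayed between 8.57 and 9.27 on all 12 arrays, so the step of -3.20 ± 0.31 (SE; limma, adjusted p = 0.0287) came as the gene rose around it. Srpk2, a kinase of SR splicing proteins, had 2 neighbouring members that rose from ES cells to EB. The index of 10528503 was -2.28 and -2.26 in ES cells, -0.33 and -0.49 in EB, -0.23 and -0.06 in CB, and 0.52 to 1.54 in the hearts, a step of 1.86 ± 0.17 (SE; limma, adjusted p = 0.0199). The index of 10528502 rose by 1.58 ± 0.17 (SE; limma, adjusted p = 0.0425), and here the signal itself rose, from 6.31 and 6.20 to 7.88 and 7.91. The count rests on single arrays: it was 0 without either ES array, without EB replicate 2 or without either P1 array, 1 without either E17.5 or adult array, and 6 without EB replicate 1. The comparison share moved with it: of all probe sets 19 passed, but 2 without ES replicate 1, 0 without ES replicate 2 or EB replicate 2, 5 to 8 without any 1 of the E17.5, P1 or adult arrays, and 417 (0.870%) without EB replicate 1, when the members' share was 1.79%. Over all alternatives the adjusted p of Tpm1 10594673 ran from 0.0213 to 0.218 and that of Srpk2 10528503 from 0.0149 to 0.164.

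From CB to the E17.5 heart, 7 members passed (2.09%), beside 0.545% of all probe sets. An unadjusted p under 0.05 was found for 124 members, and the share of all probe sets at that level was not counted. All 7 went in the direction of the switch. CB and E17.5 hearts both entered the rule, so this direction, the share that passed and the p-values are not independent of it. Only 2 of the 7 were own-row members, which is 0.826% of the 242 and nearer to the share of all probe sets. Actn4, an alpha-actinin that crosslinks actin, had an index of -0.08 to 0.09 on the ES and EB arrays, 0.74 and 0.36 in CB, 1.66 and 1.70 at E17.5, 2.16 and 2.00 at P1, and 2.03 and 1.77 in adults at probe set 10561541. CB stood between the other cultures and the hearts, and the step was 1.13 ± 0.18 (SE; limma, adjusted p = 0.0410). Clasp1 10349250 fell by 1.28 ± 0.21 (SE; limma, adjusted p = 0.0488). The other 5 were in Pkm, Hk1 (2), Pgm1 and Myo18b. The count was 2 without either ES, EB or P1 array, 0 without CB replicate 1, 1 without CB replicate 2, 4 without E17.5 replicate 2 and 3 without either adult array. Of all probe sets 261 passed, but 129 without either ES array, 136 without either P1 array, 36 and 133 without CB replicates 1 and 2, 60 (0.125%) without E17.5 replicate 2 and 707 (1.48%) without E17.5 replicate 1, when the members' share was 1.79%. Over the alternatives the adjusted p of Pkm ran from 0.00597 to 0.258.

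Between the E17.5 and adult hearts many indices changed. Of the 335 members 128 passed (38.2%) and of the 242 own-row members 89 (36.8%), beside 29.1% of all probe sets, so that change in this step was common among all probe sets too. The median absolute change was 0.81 for the own-row members and 0.50 for all probe sets. Of the 111 higher own-row members 31 passed and all 31 rose further, beside 14.6% of all probe sets that rose. Of the 131 lower ones 58 passed, of which 54 fell further and 4 rose, beside 14.5% of all that fell. The adults are 1 of the 4 cardiac groups that had to lie on the same side, and they entered the mean difference of 1 or more. Without them 183 of the 242 own-row members still differed by 1 or more. The directions, the size of the change and the share of members that passed are therefore not independent of the rule. Without E17.5 replicate 2 the count of 128 fell to 85 (25.4%) and the share of all probe sets to 16.7%. Without adult replicates 1 and 2, which differ in Myl7 and Nppa, 94 and 95 members passed (28.1% and 28.4%), beside 20.8% and 21.2%. Markers of other cells moved over the same step. The fibroblast mean went from 10.28 and 10.45 at E17.5 to 8.57 and 8.84 in adults, with 7 of 7 above the array median in both, and the macrophage mean from 6.35 and 6.37 to 7.76 and 8.15, with 5 and then 6 of 7 above it. The red cell mean went from 8.02 and 9.28 to 6.31 and 6.94. Their part in the index changes was not tested.

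The 4 largest adult changes among the own-row members were falls, in H13, Aldh18a1, Clk4 and Pds5a. H13, a protease that cleaves signal peptides within the membrane, had an index of -1.55 to -0.71 on the ES and EB arrays, -2.64 to -1.56 on the CB, E17.5 and P1 arrays, and -4.66 and -6.82 in adults (10477153). The change was -3.97 ± 0.63 (SE; limma, adjusted p = 0.00292). Aldh18a1, an enzyme of proline synthesis, had an index of -0.44 to -0.26 on the ES and EB arrays, -1.05 to -0.53 in CB and the younger hearts, and -5.43 and -2.99 in adults, where the signal was 1.98 and 4.31. The splicing kinase gene Clk4 changed by -3.41 and the cohesin regulator gene Pds5a by -3.39, with Pds5a arrays at -5.31 and -5.15 in adults against -1.81 and -1.88 at E17.5. In these 4 the nearest arrays of the sides were 0.01 to 0.29 apart, and the adult arrays lay beyond all others. Only 1 of the 4 cardiac groups had shifted by 1 or more in H13, Aldh18a1 and Pds5a, and 2 had in Clk4. The adult values thus helped these members to meet the rule, so their adult changes and p-values are not independent of it.

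Among members described above, several changed in index between E17.5 and adult hearts. Both groups entered the rule, so the changes and p-values of these members are not independent of it. The lower Slc25a3 member fell by 2.10 ± 0.17 (SE; limma, adjusted p = 0.000238), and all 6 lower Pdlim5 members fell, with changes of -3.12 to -1.67. Of the 9 lower Clasp1 members 6 passed, with changes of -1.71 to -0.65. Falls also passed in Ak1 10471478 (-2.13), Rdx (-3.08) and Immt 10539033 (-1.63). Among higher members, Map3k4 rose by 3.32 ± 0.35 (SE; limma, adjusted p = 0.000608) and Agrn by 2.52 ± 0.34 (SE; limma, adjusted p = 0.00160). Hacd1 10480253 went the other way and rose by 0.97 as its gene fell back from 10.69 and 10.61 to 10.14 and 9.94. For Capzb, with an adult change of -0.42, and for the higher member of Slc25a3 the change did not pass.

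**Figure D4:**
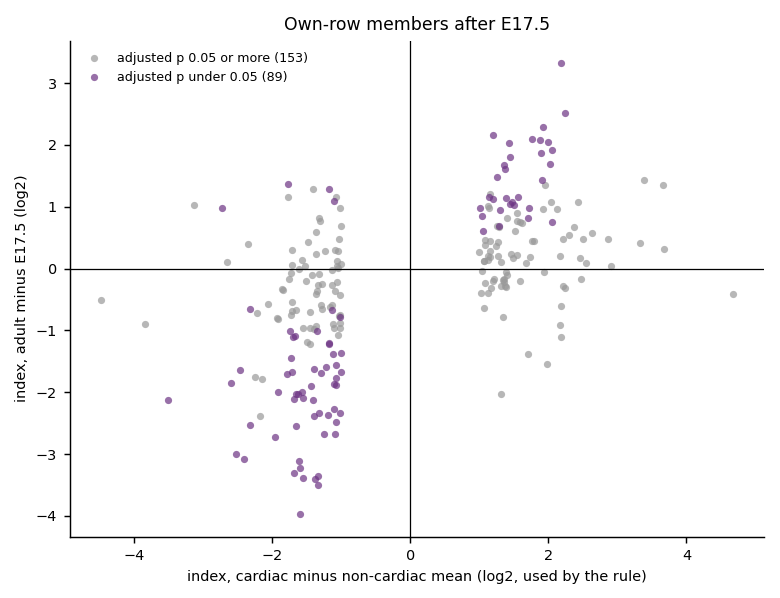
Change of the index from E17.5 to adult hearts (y axis, log2) against the cardiac minus non-cardiac difference used by the rule (x axis, log2) for the 242 own-row members; purple points passed an adjusted p under 0.05 (89) and grey ones did not. The called points lie mostly at lower left and upper right, where the adult index is further along the switch, and the rule itself favours those corners.

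The levels of the genes that hold members were tested over the same step. Of the 202 member genes 43 rose and 55 fell between E17.5 and adult hearts, beside 18.1% and 18.0% of all 19920 genes. That is 48.5% of member genes, with a median change of -0.16 against 0.05 for all genes. Of the 179 genes with own-row members 36 rose and 47 fell (46.4%), with a median change of -0.13. The gene level is part of the index that the rule used on these arrays, so these shares are not independent of the rule. Member genes had to be at 7 or more on every array and were thus brighter than genes at large.

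The splicing regulators were compared at gene level between the 4 cardiac groups and the 2 others. Of 61 listed 57 were measured, and 11 rose, 32 fell and 14 did not pass, beside 21.4% of all genes that rose and 24.9% that fell. Their median change was -0.55 and that of all genes 0.02. Chosen after their values were seen, 2 families of the list stood out. All 8 measured Srsf genes fell, which encode SR proteins that mostly promote exon use. So did all 10 measured Hnrnp genes, many of which block it. The cardiac mean joins groups with unlike courses. Srsf5 had group means of 10.43 in ES cells, 10.79 in CB, 10.32 at E17.5 and 7.34 in adults. Those of Hnrnpc were 10.19, 9.78, 8.79 and 8.66. After quantile normalization 7 of 8 Srsf and 10 of 10 Hnrnp genes fell. The 11 rises were in Rbm24, Rbm20, Rbfox1, Mbnl1, Celf2, Mbnl2, Qk, Rbm38, Rbpms, Khdrbs3 and Nova2. The regulators were not tested for any link to single members.

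Rbm24, an RNA-binding protein that promotes the use of many muscle exons, stood at 6.04 and 6.21 in ES cells, 6.81 and 7.94 in EB, 9.88 and 8.98 in CB, 10.77 and 10.64 at E17.5, 11.07 and 11.10 at P1, and 10.11 and 10.29 in adults. The difference was 3.61 ± 0.20 (SE; limma, adjusted p = 2.82e-08). Rbm20, the regulator of titin splicing, rose by 3.18 ± 0.13 (SE; limma, adjusted p = 1.92e-09), from 5.68 to 6.39 on ES and EB arrays to 7.88 and 8.45 in CB and 8.61 to 10.4 in the hearts. Both had left the ES and EB range in CB. Rbfox1 rose by 2.05 and was at 5.33 and 5.52 in CB but 9.25 and 9.34 in adults, and Mbnl1 rose by 1.99 with CB (7.23 and 7.63) below the EB arrays. For both, most of the rise lay in the hearts. Celf2 rose by 1.92.

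Esrp1, the epithelial splicing factor, fell most, by 2.67 ± 0.11 (SE; limma, adjusted p = 2.73e-09). It was 6.71 and 6.69 in ES cells, 8.27 and 8.51 in EB, 6.60 and 6.50 in CB, and 3.99 to 4.64 in the hearts. CB were close to ES cells, and epithelial markers (6 genes) moved with it, at 10.4 to 10.6 in EB, 7.46 to 7.85 in CB and 5.33 to 6.28 in the hearts. Their part in the fall was not tested. Hnrnpf fell by 1.47 ± 0.10 (SE; limma, adjusted p = 1.17e-07) and was 12.2 and 12.3 in CB, as in ES cells and EB (12.3 to 12.6), but 8.68 and 8.75 in adults. Hnrnph1 fell by 1.49, Tra2a by 1.49 and Elavl2 by 1.60. Rbfox2 (0.25, adjusted p = 0.0861) and Celf1 (-0.16, adjusted p = 0.206, limma), which hold members themselves, did not pass at gene level. The Celf1 member 10473776 fell from 8.76 to 7.47 in signal, an index difference of -1.13.

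**Figure D5:**
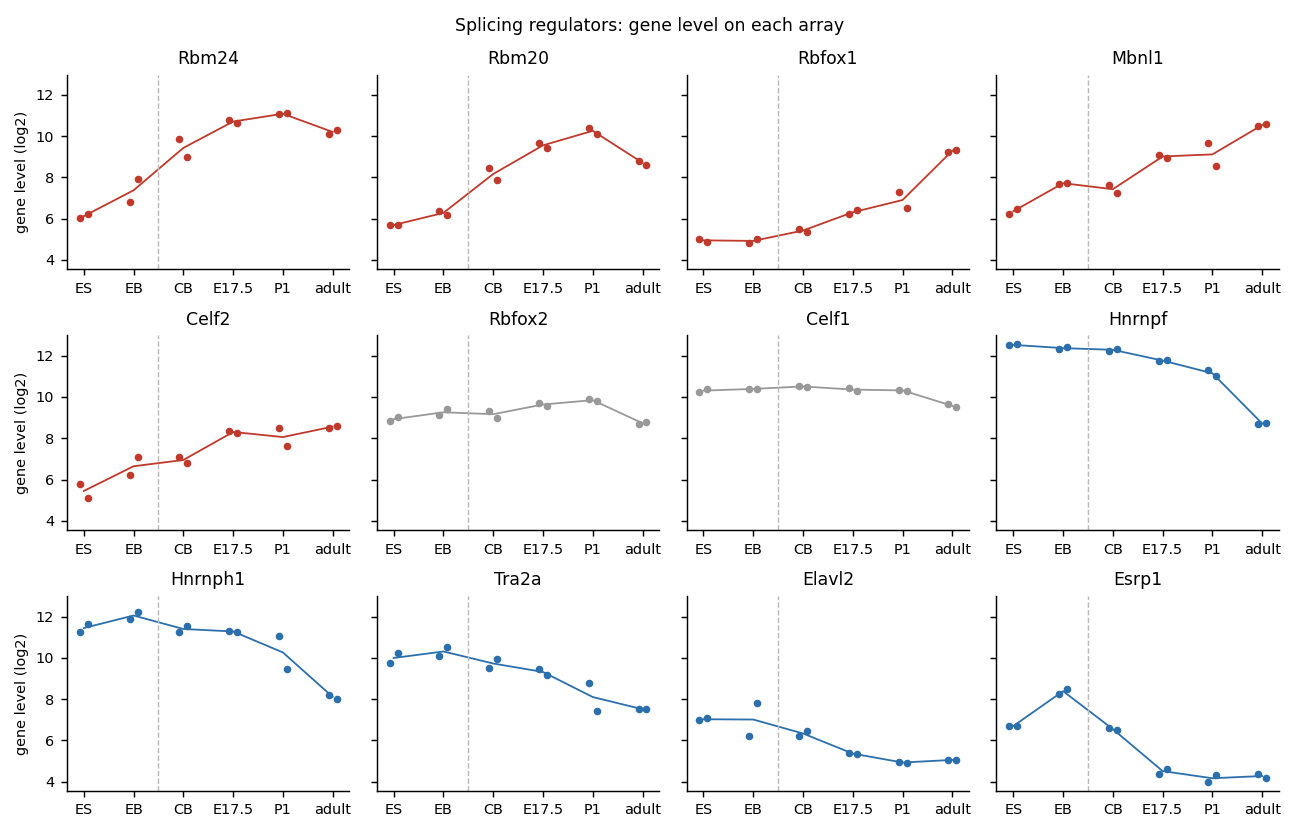
Gene level (log2) of 12 splicing regulators by group; points are single arrays and lines join group means, red for the 5 largest rises, blue for the 5 largest falls and grey for Rbfox2 and Celf1, which hold members and did not pass. Rbm24 and Rbm20 rise in CB, Rbfox1 and Mbnl1 mainly in the hearts, and Hnrnpf and Hnrnph1 fall mainly in adults.

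Of the 93 members measured against another row, 63 lay in 3 genes. The 35 Myo18b members, all higher, are spread over 18 numbered gene rows. Their signals rose by 2.27 to 4.59, while the row used as the gene level rose by 0.44. Myo18b encodes a muscle myosin of the sarcomere, and these members are 35 of its 43 probe sets. Against the rows numbered below them their differences were -0.62 to 1.76. With 35 members on 18 rows, such a row may rest largely on the member itself, which was not checked. The 16 members of Hk1, a hexokinase, were 2.12 to 3.70 higher against a row that fell by 0.67, and -0.70 to 0.88 against their own numbered row. The 12 members with the symbol Pgm1, a phosphoglucomutase, were all lower by 2.12 to 3.15, and lay between -0.64 and 0.39 against the row numbered below them, which is named Pgm2. The 6 members with the symbol Tcf3 are numbered after a row named Tcf7l1 in the same way, so for both symbols 2 genes may be mixed. The 4 members of the tropomyosin gene Tpm3 had 0.04 to 1.14 against their own row in place of 2.07 to 3.18. The Cox20 member, at -2.82, had 0.0 against its numbered row, which has no gene listed. That row may repeat the values of the probe set itself, so this 0.0 cannot show whether the stretch switched.

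The 3 that met the rule against either row were in Pkm, Naca and Atp5pb. Pkm, pyruvate kinase, has a pair of exchangeable exons for its adult muscle and its general form. Its member 10585938 had signals of 9.03 and 8.69 in ES cells, 7.88 and 8.47 in EB, 10.58 and 10.50 in CB, 11.91 and 11.68 at E17.5, 11.19 and 11.50 at P1, and 10.96 and 10.18 in adults. CB lay between the other cultures and the E17.5 hearts. The index difference was 3.42, or 3.03 against its own row. The step from CB to E17.5 was 1.93 ± 0.19 (SE; limma, adjusted p = 0.00755). Naca, whose muscle form carries a large extra exon, had signals of 6.05 to 7.37 on ES and EB arrays, 9.05 and 8.40 in CB, and 9.83 to 11.97 in the hearts at 10367093, with differences of 3.70 and 3.57. The Atp5pb member, of the mitochondrial ATP synthase, had -2.03 against its own row.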

How the data were processed

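The authors deposited log2 values of 12 arrays at gene level (35556 rows) and at exon level (241576 probe sets), made with RMA in Affymetrix Power Tools per the submitters' processing notes. The sources used here give neither their versions nor a genome build. The deposited log2 values were used without further scaling, and the number of arrays limits the precision. Symbols came from the platform annotation, brought up to date with RefSeq records. Of the probe sets 212097 had 1 symbol. A gene was its row with the highest mean, and 1847 probe sets identical to their row were left out. The members, lists and tests were chosen with earlier results of these data known.

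Index and gene levels entered limma (version 3.58.1, with R 4.3.3; lmFit and eBayes) with 6 group means over all 12 arrays, leaving 6 residual degrees of freedom. P-values were adjusted by Benjamini-Hochberg over 47906 probe sets or 19920 genes and called under 0.05. The fits were tested on simulated data. Tables and plots were made in Python 3.11.15 with numpy 2.4.6, pandas 2.3.3 and, for the plots, matplotlib 3.10.9.

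Probe sets were named by rule: the 10 largest differences in each direction (1 per gene), 12 genes with both directions, up to 12 genes known for muscle splicing, the 3 genes with most members, up to 4 called members per tested comparison, the 3 nearest each side of the threshold, and up to 8 in genes whose side means differed by under 0.25. Regulators named were the 5 largest called rises and falls and those holding members. Atp5pb, Tcf3, the second Immt and Srpk2 probe sets, the regulator families and further regulators were named after their values were seen. Alternatives were a replicate block, other denominators of the index, another floor, a brightness filter, quantile normalization, an intensity trend, the mean of all rows, the row numbered next below a probe set (chosen after seeing the data), and each array left out.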

Additional observations from a re-analysis of the deposited data

How the results depend on the processing

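The rule kept 723 probe sets with a gene floor of 6 and 152 with a floor of 8, and 329 to 592 when each array was left out. Other settings kept 267 to 405. The median of the gene's other probe sets as denominator kept 66.1% of the own-row members, and there Hk1 10369552 had -0.57 and Pgm1 10522010 had 0.39, against the direction of the main setting. For EB minus ES the 3 called members were 1 with that denominator and 0 to 6 with single arrays left out. For E17.5 minus CB the 7 were 0 with that denominator (limma, 72 at an unadjusted p under 0.05), 3 after quantile normalization, 4 with an intensity trend, 3 against the row numbered below the probe set (a choice made after seeing the data), and 0 to 6 with single arrays left out (79 to 126 unadjusted). For adult minus E17.5 the range was 85 to 131. Replicate numbers did not pair the samples: their deviations correlated at -0.18 to 0.29 over the 15 group pairs, with 2 pairs over 0.1. With a replicate block the called members were 1, 5 and 127 for the 3 comparisons. The regulators called were 41 to 45, and the member genes called between E17.5 and adult 68 to 122, over all settings run. With 2 arrays a group, a lone array is assumed to vary like the other groups when its partner is left out. Counts at an unadjusted p have no share of all probe sets beside them, so they cannot be read as an excess. Signals below the exon-level median limit what the dim stretches show.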

Other observations

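Of the 179 genes with own-row members, 147 were found by symbol in RefSeq's table of gene starts, and 29.9% of these had more than 1 start listed, compared with 20.1% of the 3021 genes considered that were found. Member genes also held more probe sets, so the shares are not of like genes, and no test was made. Of the 179 genes, 149 held 1 own-row member, 21 held 2 and 9 held 3 or more.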
